A study of Mus musculus with 6 samples.

Results

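The genes described here are 10 imprinted genes with known roles in embryonic growth: H19, Meg3, Rian, Mirg and Grb10, which are expressed mainly from the maternal allele, and Dlk1, Peg3, Plagl1, Mest and Ndn, which are expressed mainly from the paternal allele. They were chosen by name, as the loci of the count table whose gene name or joined names include a member, and all 10 were found among 51499 loci. The libraries are poly(A) RNA-Seq of WT MEFs (mouse embryonic fibroblasts, connective tissue cells cultured from embryos), collected 72 h after transfection with a scrambled siRNA as control (Scr) or an siRNA that targets Yme1l, with 3 independent cultures in each group. Both groups are the same WT MEFs, and the only difference that the labels give between them is the siRNA. The labels describe the cells as 3T3 immortalized, whereas the study's methods describe MEFs from Yme1l loxP/loxP animals that were immortalized with SV40 large T antigen, passed through Cre transduction and expanded as individual clones, with WT meaning that the loxP alleles were kept. The libraries hold between 37260605 and 45205207 counts. Yme1l1, which encodes the targeted mitochondrial protease, was at 171 ± 0.425 CPM (counts per 1e6 counts of the scaled library, SD, n = 3) in the Scr libraries and at 33.4 ± 10.9 CPM in the Yme1l siRNA libraries, a log2 fold change of -2.36 (SE 0.20; edgeR's quasi-likelihood test with Benjamini-Hochberg adjustment, adjusted p = 3.9e-05). Replicate 3 of each group stood further from the other libraries of its group than these did from each other, with chi-square values per degree of freedom of 45.3 to 69.9 for the pairs with replicate 3, and of 9.70 in Scr and 26.1 in Yme1l siRNA for the remaining pair.

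An imprinted gene is transcribed from one parental allele, and the choice is set by DNA methylation that is laid down in the germ line and kept through the divisions of the embryo. Many paternally expressed genes promote growth of the fetus and placenta, and many maternally expressed genes restrain it, and several act on signalling by insulin-like growth factors. Most of these genes are expressed strongly in the embryo and are silenced in many tissues after birth. The deposited counts carry no allele information, so every value below is the sum over both alleles, and in bulk libraries fewer cells that express a gene cannot be told apart from less RNA per cell.

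Of the 10 genes, 4 had no count in any library, 1 had 2 counts in all, and 5 passed the filter on low counts and were tested. H19 and Plagl1 were higher after Yme1l knockdown, Mest and Mirg were lower, and Grb10 was not called at an adjusted p under 0.05. These counts of 2 higher and 2 lower stand beside 28.4% of all 14499 loci tested that were called higher and 29.6% that were called lower, so calls were common throughout the table. The maternally expressed genes held 1 call in each direction among 3 tested, with a median log2 fold change of 0.74, and the paternally expressed genes 1 call in each direction among 2 tested, with a median of -0.89. The maternal median is the value of Grb10, which was not called. The paternal median is the midpoint of Plagl1 at 0.43 and Mest at -2.21, so neither median gives a direction for its group. The median over all loci tested was 0.01.

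**Figure D1:**
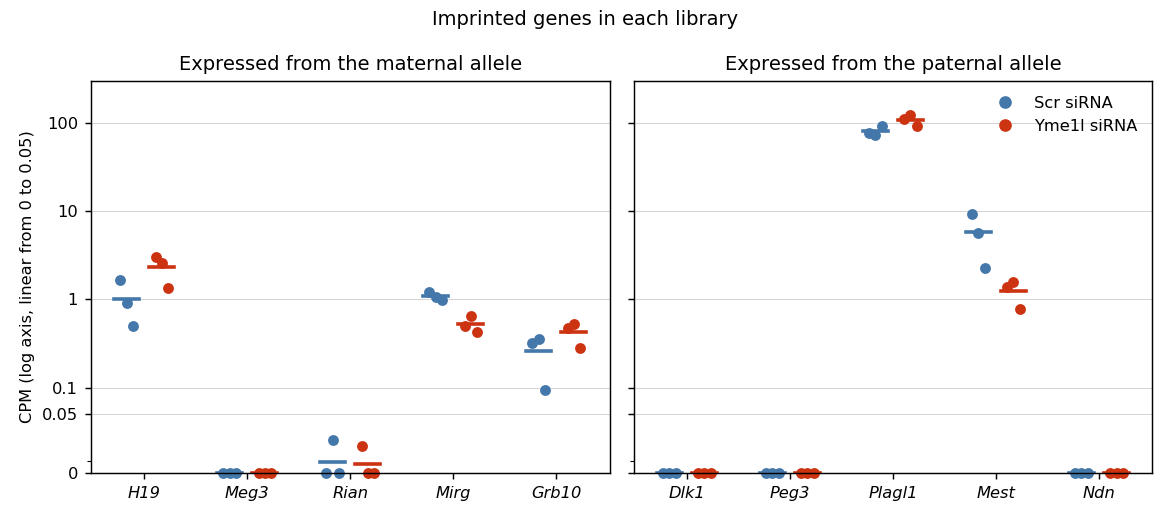
CPM of each gene in each library (points; blue Scr, red Yme1l siRNA) with the group mean as a line, on a log axis that is linear from 0 to 0.05 CPM. Meg3, Dlk1, Peg3 and Ndn lie at 0 in all 6 libraries, Plagl1 lies above all others, and the groups do not overlap at Mirg and Mest.

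H19, Mirg, Meg3, Rian and Mest also carry miRNA genes within their transcribed regions, and their sequences show what these transcripts are precursors of. RefSeq places 2 mature miRNAs in H19, 26 from 14 miRNA genes in Mirg, 3 in Meg3, 6 in Rian and 2 in an intron of Mest. The poly(A) libraries count the host transcripts and not the mature miRNAs, so no level of a miRNA is given. The sequences below are those of H19 and Mest and a selection from Mirg, the hosts that were called, from RefSeq on GRCm38.p6, written 5′ to 3′ with the seed (bases 2 to 8) in capitals. The last 2 of Mirg are shown because they share their seed, and the 26 miRNAs of Mirg have 25 different seeds.
mmu-miR-675-5p (H19): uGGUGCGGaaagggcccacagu
mmu-miR-675-3p (H19): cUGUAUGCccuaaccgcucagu
mmu-miR-335-5p (Mest): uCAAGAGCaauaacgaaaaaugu
mmu-miR-335-3p (Mest): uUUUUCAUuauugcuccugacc
mmu-miR-134-5p (Mirg): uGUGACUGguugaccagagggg
mmu-miR-377-3p (Mirg): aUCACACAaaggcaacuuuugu
mmu-miR-382-5p (Mirg): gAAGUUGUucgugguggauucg
mmu-miR-410-3p (Mirg): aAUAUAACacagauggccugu
mmu-miR-369-3p (Mirg): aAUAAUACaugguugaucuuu
mmu-miR-453 (Mirg): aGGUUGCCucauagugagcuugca
mmu-miR-496a-5p (Mirg): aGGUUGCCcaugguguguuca
The miR-675 pair lies at chr7:142577078-142577133 on the minus strand, inside the exonic sequence of H19, and its gene is joined with H19 in 1 locus of the count table. The miR-335 pair lies at chr6:30741314-30741375 on the plus strand, and its own locus had 0 counts in all 6 libraries.

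H19 encodes a long noncoding RNA that restrains growth and shares its imprinting control region with Igf2. It lies at chr7:142575529-142578143 (GRCm38) on the minus strand. The Scr libraries held 71, 33 and 21 counts, which are 1.64, 0.914 and 0.498 CPM. The Yme1l siRNA libraries held 136, 112 and 57 counts, which are 3.07, 2.58 and 1.35 CPM. The groups overlapped, since the highest Scr library lay above the lowest Yme1l siRNA library. The mean was 1.02 ± 0.578 CPM in Scr and 2.33 ± 0.883 CPM in Yme1l siRNA (SD, n = 3), a log2 fold change of 1.19 (SE 0.44, adjusted p = 0.0441 by edgeR), which is 2.28-fold. An exact two-sided permutation test of the CPM gave p = 0.2, where 3 against 3 libraries cannot go below 0.1. H19 no longer passed in 4 of the 6 fits with a library left out, with a log2 fold change of 1.12 (adjusted p = 0.121) without Scr replicate 2, 0.85 (0.115) without Scr replicate 3, 0.95 (0.146) without Yme1l siRNA replicate 1 and 1.12 (0.0957) without Yme1l siRNA replicate 2.

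Mirg encodes a maternally expressed noncoding RNA that lies beyond Meg3 and Rian in the imprinted Dlk1 to Dio3 region and is the host of a large miRNA cluster. It lies at chr12:109729764-109749460 on the plus strand, and its locus in the count table joins 10 names, 9 of them miRNA genes. Counts were 52, 38 and 42 in Scr and 22, 28 and 18 in Yme1l siRNA. Every Scr library (1.20, 1.05 and 0.995 CPM) lay above every Yme1l siRNA library (0.496, 0.644 and 0.427 CPM). Groups that did not overlap were found at 2 of the 5 tested genes and at 65.4% of all loci tested. The mean fell from 1.08 ± 0.106 to 0.522 ± 0.111 CPM, a log2 fold change of -1.05 (SE 0.25, adjusted p = 0.00727 by edgeR; exact permutation p = 0.1). The call held in each of the 6 fits that left out a library, with log2 fold changes between -1.22 and -0.93.

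Grb10 encodes an adaptor protein that binds the insulin and IGF1 receptors and inhibits their signalling, and it lies at chr11:11930508-12038683 on the minus strand. It held 14, 13 and 4 counts in Scr and 21, 23 and 12 in Yme1l siRNA, a mean of 0.259 ± 0.144 against 0.429 ± 0.128 CPM. The lowest Yme1l siRNA library lay below 2 of the 3 Scr libraries. The log2 fold change of 0.74 (SE 0.48, adjusted p = 0.214 by edgeR) has a 95% interval from -0.20 to 1.67, which includes both no change and a 2-fold rise. The authors' FPKM of the group, which pool the libraries, were 0.140 in Scr and 0.126 in Yme1l siRNA, an order opposite to that of the counts.

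Plagl1 encodes a zinc finger transcription factor (also known as Zac1) that is known to act on other imprinted genes, and it lies at chr10:13060504-13131694 on the plus strand. It was the most highly expressed of the set. Counts were 3358, 2642 and 3954 in Scr and 4984, 5353 and 3913 in Yme1l siRNA. In CPM, the Scr libraries stood at 77.6, 73.2 and 93.7 and the Yme1l siRNA libraries at 112, 123 and 92.9, so that replicate 3 of both groups had nearly the same level and the groups overlapped. The mean was 81.5 ± 10.8 CPM in Scr and 109 ± 15.4 CPM in Yme1l siRNA, a log2 fold change of 0.43 (SE 0.13, adjusted p = 0.0185 by edgeR), or 1.34-fold. Plagl1 no longer passed without Scr replicate 1 (0.38, adjusted p = 0.0666), Scr replicate 2 (0.35, 0.0780), Yme1l siRNA replicate 1 (0.41, 0.0570) or Yme1l siRNA replicate 2 (0.34, 0.0517). Without replicate 3 of both groups, a choice made after the values were seen, the log2 fold change was 0.64 (adjusted p = 7.4e-05).

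Mest, also called Peg1, encodes an enzyme-like protein of the alpha/beta hydrolase fold and is a classical growth-promoting gene of the paternal allele. It lies at chr6:30723547-30748465 on the plus strand. The Scr libraries held 408, 202 and 97 counts and the Yme1l siRNA libraries 62, 68 and 33. All 3 Scr libraries (9.42, 5.60 and 2.30 CPM) lay above all 3 Yme1l siRNA libraries (1.40, 1.56 and 0.783 CPM), although Scr varied 4.10-fold between its highest and lowest library. The mean fell from 5.77 ± 3.57 to 1.25 ± 0.411 CPM, a log2 fold change of -2.21 (SE 0.48, adjusted p = 0.00451 by edgeR; exact permutation p = 0.1), or 4.61-fold. This was the largest change among the 5 tested genes, and the call held in each fit that left out a library, with log2 fold changes between -2.59 and -1.66. Mest shares 912 exonic bases, 23.1% of its own, with Copg2 on the opposite strand. Copg2, which encodes a subunit of the COPI vesicle coat, held 2507, 1969 and 2489 counts in Scr and 1359, 1139 and 1233 in Yme1l siRNA, a log2 fold change of -0.99 (SE 0.08, adjusted p = 2.5e-05). The libraries are stranded, but the sources used here do not say whether the counting used strand, so reads in the shared bases cannot be assigned to either gene.

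**Figure D2:**
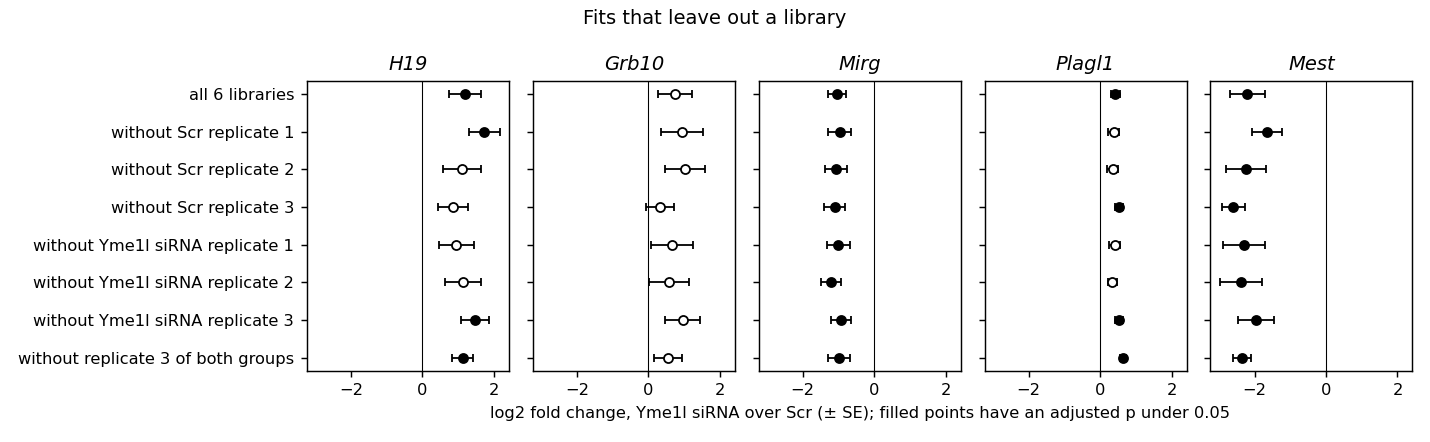
Log2 fold change of the 5 tested genes (points, with SE as bars; filled where the adjusted p was under 0.05) with all 6 libraries and with libraries left out. Mirg and Mest stay filled in every fit, H19 and Plagl1 become open in 4 fits each, and Grb10 is open throughout.

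H19, Mirg, Grb10 and Mest had their lowest CPM in replicate 3 in both groups, which was the case at 18.1% of 14438 loci. The spread between the libraries of a group was wide for some of them. The highest Scr library was 3.29-fold above the lowest at H19, 3.80-fold at Grb10 and 4.10-fold at Mest, against 1.21-fold at Mirg, 1.28-fold at Plagl1 and a median of 1.16-fold over all loci. In Yme1l siRNA the same ratio was 2.27 at H19, 1.86 at Grb10 and 2.00 at Mest, against a median of 1.19.

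Levels were compared between genes per length, as RPKM (CPM per kb of the exons annotated at the locus). In Scr the order was Plagl1 (10.4 ± 1.38 RPKM), Mest (1.46 ± 0.904), H19 (0.414 ± 0.235), Mirg (0.142 ± 0.014) and Grb10 (0.0285 ± 0.0158). Mest and H19 overlapped in this order, since the lowest Mest library lay below the highest H19 library. After Yme1l knockdown H19 (0.948 ± 0.359 RPKM) stood above Mest (0.316 ± 0.104), and their libraries did not overlap. Plagl1 (14.0 RPKM) stayed above both, and Mirg (0.0687) and Grb10 (0.0472) stayed below both, with libraries of these last genes that overlapped. The authors' FPKM placed Mirg differently. It stood above H19 in Scr (1.46 against 0.624) and above Mest in Yme1l siRNA (0.795 against 0.610), so the place of Mirg depends on the measure. Plagl1 alone lay above the median of all loci tested, which was 5.54 RPKM in Scr. Its level exceeded 65.8% of loci in Scr, and the others exceeded 27.5% (Mest), 15.5% (H19), 7.00% (Mirg) and 0.987% (Grb10).

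Dlk1 encodes a transmembrane ligand related to those of Notch that holds back adipocyte differentiation, Peg3 a large zinc finger protein, Ndn the growth suppressor necdin, and Meg3 a noncoding RNA that shares its imprinting control with Dlk1. They lie at chr12:109452823-109463336 (Dlk1, plus strand), chr7:6703892-6730431 (Peg3, minus strand), chr7:62346569-62350262 (Ndn, plus strand) and chr12:109541001-109571726 (Meg3, plus strand). All were at 0 counts in each of the 6 libraries, and the authors' FPKM were also 0 in both groups. A count of 0 over 251529738 counts allows up to 0.0119 CPM, and in a single library between 0.0676 and 0.0831 CPM, for counting error only, so a change below these levels was not detectable. No count in any library was the case at 24.9% of protein-coding loci and at 70.8% of lincRNA loci. Rian, the noncoding host of a snoRNA cluster at chr12:109603940-109661716 on the plus strand, had 1 count in Scr and 1 in Yme1l siRNA, and no comparison can be drawn from them.

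The genes at 0 lay among other loci at 0, and 53.7% of all 51499 loci had no count in any library. From Dlk1 to Dio3 (chr12:109452823-110281097) the table lists 92 loci, of which 83 had no count, among them Rtl1, a paternally expressed gene derived from a retrotransposon. Of the 92 loci, 51 carry the name of a miRNA gene. Poly(A) libraries do not count mature miRNAs, so a 0 at such a locus says little about transcription of the region. The region held 302 counts over all libraries, and 200 of them were at the Mirg locus. Dio3, which encodes the deiodinase that inactivates thyroid hormone, had 14, 11 and 1 counts in Scr and 9, 9 and 0 in Yme1l siRNA, too few to be tested. From Zim1 to Usp29 (chr7:6671269-6967219), the region around Peg3, all 12 loci were at 0. From Snrpn to Ndn (chr7:59982495-62350262), 33 of 40 loci were at 0, and 13 of the 40 carry the name of a miRNA gene. Most counts there lay at the processed pseudogenes Gm10297 and Gm7367. Magel2 was at 0 and Mkrn3 had 2 counts, both in Scr replicate 3.

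**Figure D3:**
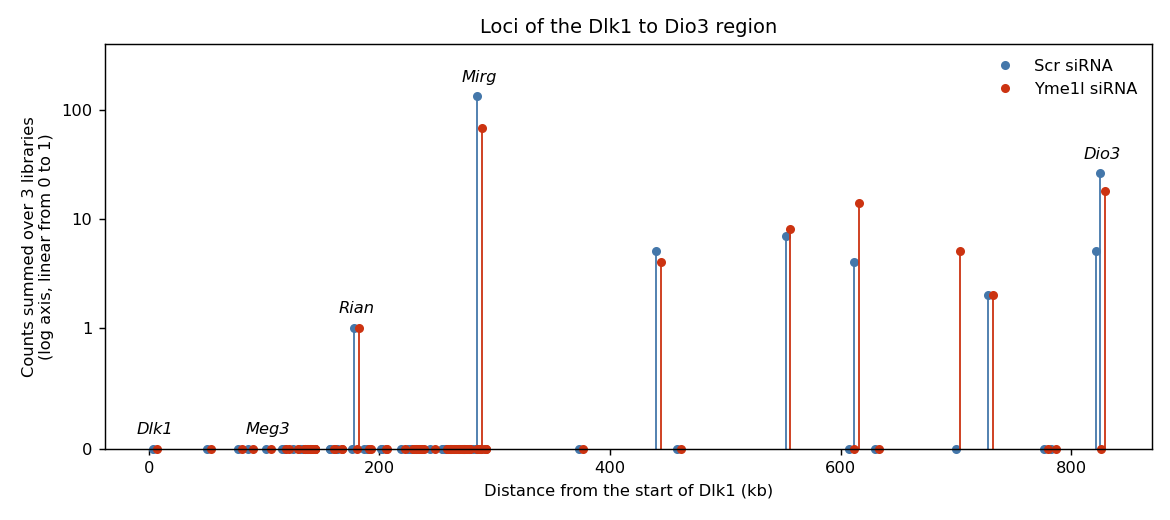
Counts summed over the 3 libraries of each group (blue Scr, red Yme1l siRNA, log axis that is linear from 0 to 1) at the 92 loci from Dlk1 to Dio3, against distance from the start of Dlk1 in kb. Mirg stands out with 132 counts in Scr and 68 in Yme1l siRNA, and 83 loci lie at 0.

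The partners and neighbours of the expressed genes moved in both directions. The counts of called neighbours below stand beside 28.4% of all loci tested that were called higher and 29.6% lower. Igf2, which encodes the fetal growth factor that is controlled together with H19, had 2, 3 and 2 counts in Scr and 20, 26 and 13 in Yme1l siRNA, at a locus that joins its name with AC013548.1. The groups did not overlap, and the ratio of the summed counts per effective library was 7.88 (95% counting interval 3.60 to 20.5; fitted log2 fold change 2.91, SE 0.48, adjusted p = 0.000978 by edgeR). At 0.453 ± 0.145 CPM in Yme1l siRNA, it remained a low transcript. The authors' FPKM of Igf2 rose less than the counts, from 0.0646 in Scr to 0.194 in Yme1l siRNA. H19 and Igf2, which are expressed from opposite alleles in the embryo, were thus both higher. Within 250 kb of H19, Syt8, a member of the synaptotagmin family, was higher as well (2.66, adjusted p = 0.00282, and 3.62 without Scr replicate 2, from 4, 9 and 1 counts in Scr), and of 6 loci tested there 2 were higher and 1 lower. Near Plagl1, 3 of 6 tested loci were higher and 2 lower, with Phactr2, a regulator of protein phosphatase 1 and actin, lower by -1.47 (adjusted p = 1.4e-05) and the noncoding B230208H11Rik higher by 1.56 (adjusted p = 0.00763). Near Mest, 2 of 4 tested loci were higher and 2 lower. Near Grb10, 1 of 2 tested loci was higher, Fignl1, an ATPase of DNA repair, which rose from 42.6 ± 4.67 to 76.8 ± 5.38 CPM (0.85, adjusted p = 0.000124). The other was Cobl, an actin nucleator, with a log2 fold change of -0.36 that did not pass (adjusted p = 0.215), and Ddc had 0 counts in Scr and 2 in Yme1l siRNA.

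A further 45 imprinted genes were taken as a comparison, of which 44 matched a name, at 43 loci. Of these, 9 had no count in any library, 23 were tested, 5 were higher, 6 were lower and 12 were not called, beside 28.4% higher and 29.6% lower over all loci tested. The median log2 fold change was -0.09, beside 0.01 over all loci, and the range ran from -0.99 (Copg2) to 2.91 (Igf2). Of the 11 paternally expressed genes tested, 3 were higher and 3 lower, and of the 12 maternally expressed genes 2 were higher and 3 lower, shares near or below those of all loci. Phlda2, a maternally expressed restrainer of placental growth, rose from 0.286 ± 0.149 to 1.24 ± 0.310 CPM, a log2 fold change of 2.12 (adjusted p = 0.00227). Nespas, an antisense transcript of the Gnas domain, rose by 2.46 (adjusted p = 0.000211), and it overlaps exons of the highly expressed Gnas by 988 bases on the opposite strand. Peg10, a paternally expressed gene needed for the placenta, was higher by 0.46 (adjusted p = 0.0112). Peg13 and Trappc9, which share a domain and are expressed from opposite alleles, were both lower, by -0.71 (adjusted p = 7.0e-05) and -0.67 (adjusted p = 8.05e-05). Peg13 lies within an intron of Trappc9 on the same strand, with 0 shared exonic bases. Reads from that intron of Trappc9 thus cannot be told apart from reads of Peg13. Airn, the noncoding RNA that silences Igf2r on the paternal allele, was lower by -0.69 (adjusted p = 0.000569), while Igf2r itself had a log2 fold change of 0.06 (SE 0.12, adjusted p = 0.684), and passed as higher only without replicate 3 of both groups (0.21, adjusted p = 0.0465). Cdkn1c, the maternally expressed inhibitor of the cell cycle, stood at -0.09 (SE 0.20, adjusted p = 0.723).

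Several of the 10 genes act on the insulin and IGF pathway, and of 19 genes of that pathway 18 were tested, 8 were higher and 6 lower, beside 28.4% and 29.6% of all loci tested, with a median log2 fold change of -0.01. Of the ligands, Igf2 rose, and Igf1 stood at -0.23 (SE 0.37, adjusted p = 0.613). The authors' FPKM of Igf1 were 1.99 in Scr and 3.73 in Yme1l siRNA, an order opposite to that of the counts. Of the receptors, Insr fell from 54.2 ± 8.55 to 27.7 ± 1.33 CPM (-0.97, adjusted p = 0.000152), and Igf1r was lower by -0.36 (adjusted p = 0.0195). Of the receptor substrates, Irs1 rose from 44.0 ± 3.33 to 124 ± 4.73 CPM (1.50, adjusted p = 7.0e-06) and Irs2 from 5.33 ± 0.550 to 13.7 ± 1.87 CPM (1.37, adjusted p = 8.5e-05). Grb14, the adaptor related to Grb10, was lower by -1.04 (adjusted p = 0.000943). Among the secreted binding proteins, Igfbp7 rose most (2.61, adjusted p = 2.4e-05), Igfbp6 and Igfbp3 were higher by 1.52 and 1.26, and Igfbp5 fell from 129, 90 and 30 counts to 4, 1 and 7 (-4.43, SE 0.69, adjusted p = 0.000747). Pappa, a protease that cleaves binding proteins, was lower by -1.47 (adjusted p = 0.000104). The size of the fall of Igfbp5 rests on few counts, and without Yme1l siRNA replicate 3 it was -5.11 (adjusted p = 0.000919). Igf1r no longer passed without Scr replicate 2 (-0.35, adjusted p = 0.0555).

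Of 19 genes known to keep or remove the methylation marks of imprinted loci, 18 were tested, 8 were higher and 4 lower, beside 28.4% and 29.6% of all loci tested, with a median log2 fold change of 0.25. Uhrf1, which brings the maintenance methyltransferase to replicated DNA, rose from 129 ± 7.03 to 238 ± 21.6 CPM (0.88, adjusted p = 6.8e-05). Hells, a chromatin remodeller needed for DNA methylation, was higher by 0.68 (adjusted p = 0.000852), and Dnmt1, the maintenance methyltransferase, by 0.45 (adjusted p = 0.00233). The de novo methyltransferase Dnmt3a was lower by -0.75 (adjusted p = 0.00246). The authors' FPKM of Dnmt3a were 4.38 in Scr and 4.83 in Yme1l siRNA, an order opposite to that of the counts. Its cofactor Dnmt3l rose by 1.97 (adjusted p = 0.00446) at 0.494 ± 0.144 CPM. Zfp57, the zinc finger protein that protects imprints, stood at -0.25 (SE 0.12, adjusted p = 0.0944), and passed as lower without Yme1l siRNA replicate 2 (-0.38, adjusted p = 0.00850). Without Scr replicate 2, 5 in place of 8 of these genes were called higher.

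**Figure D4:**
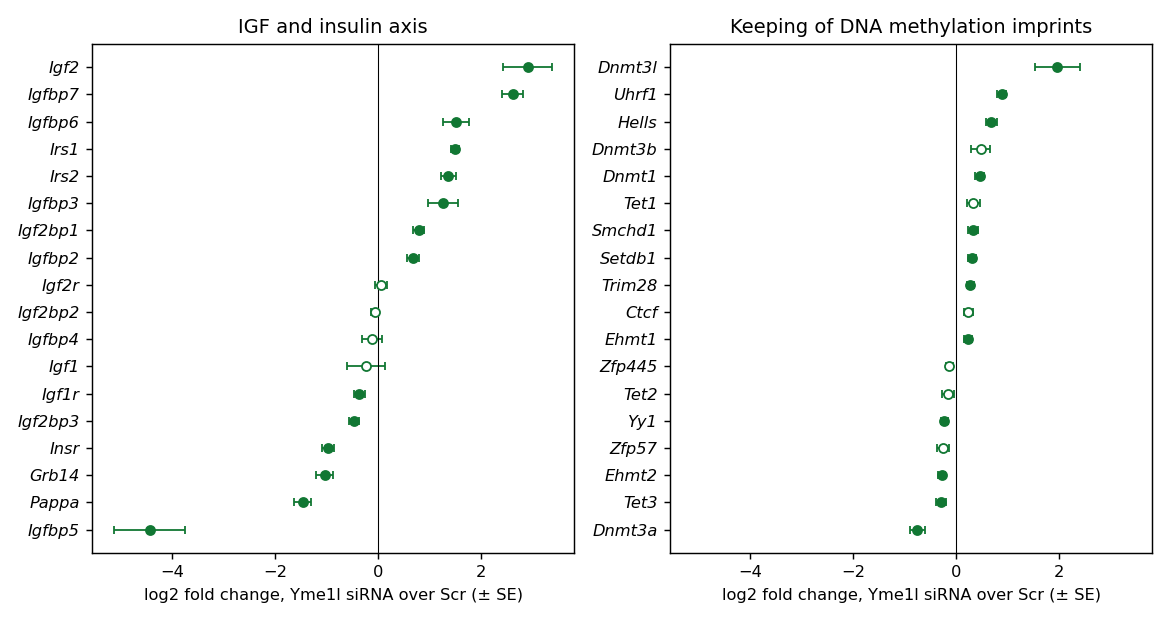
Log2 fold change (points, with SE as bars; filled where the adjusted p was under 0.05) of the tested genes of the insulin and IGF pathway and of the genes that keep or remove methylation imprints. The first panel runs from -4.43 at Igfbp5 to 2.91 at Igf2, and the second from -0.75 at Dnmt3a to 1.97 at Dnmt3l.

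Since imprints are carried by CpG methylation, the RefSeq promoter stretches of the set were read for CpG and for TGCCGC, the motif that ZFP57 binds when methylated, on both strands. RefSeq gave 13 stretches of 200 bases, from 250 to 51 bases before a start, for 9 of the 10 genes, with H19 missing. Some of them lay partly or wholly in exons annotated by GENCODE. Among these, the exonic bases were 200 at Ndn, 172 in the second stretch of Meg3, 164 at Peg3 and 91 at Plagl1. CpG was most frequent at Grb10 (33, more than in 98.9% of 32851 stretches), Plagl1 (15) and Mest (12), and the median of all stretches was 4. A second stretch of Grb10 held 5, and a further stretch of Mest held 4. TGCCGC was found in 4 stretches, 2 overlapping ones of Mest and 1 each of Plagl1 and Meg3, and in 6.69% of all stretches. The stretches of Mest, which fell, and Meg3, which was at 0, are shown as examples of either state, on GRCm38.p6 and the plus strand, with CpG in capitals. Methylation was not measured in these libraries.
Mest chr6:30737800-30737999: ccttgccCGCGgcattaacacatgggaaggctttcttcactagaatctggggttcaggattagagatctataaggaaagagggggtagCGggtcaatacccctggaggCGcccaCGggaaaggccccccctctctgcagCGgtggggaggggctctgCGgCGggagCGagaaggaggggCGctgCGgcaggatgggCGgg
Meg3 chr12:109540746-109540945: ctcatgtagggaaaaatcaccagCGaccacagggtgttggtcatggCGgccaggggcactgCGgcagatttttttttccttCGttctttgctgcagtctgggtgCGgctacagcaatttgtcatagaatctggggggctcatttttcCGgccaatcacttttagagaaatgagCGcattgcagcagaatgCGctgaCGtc

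The labelled cell type was checked against its markers. Of 12 fibroblast markers, 10 were tested, 0 were higher and 9 were lower, beside 28.4% higher and 29.6% lower over all loci tested. Their summed level was between 34661 and 41895 CPM in Scr and between 18623 and 23185 CPM in Yme1l siRNA. Thy1 had 1 count in each group. Of 19 markers of epithelial, endothelial, blood, muscle, adipocyte and neural cells that were measured, 9 were tested. Of these 9, 4 were higher and 1 lower, beside the same shares of all loci. The summed level of the 19 was between 95.7 and 108 CPM in Scr and between 90.5 and 123 CPM in Yme1l siRNA. The sum was carried by 1 blood marker, Cd68, and 1 neural marker, Map2. Map2 was at 46.4 ± 2.30 CPM in Scr and 55.2 ± 3.94 CPM in Yme1l siRNA, higher by a log2 fold change of 0.25 (adjusted p = 0.0188 by edgeR). The neural marker Sox2 was the 1 marker called lower, by -1.60 (adjusted p = 0.000422). The summed epithelial, endothelial and adipocyte markers were higher after Yme1l knockdown at low levels, with 1 marker called in each class. These were Krt8, Kdr (log2 fold change 2.57, adjusted p = 0.00058 by edgeR) and Fabp4 (1.48, adjusted p = 0.0041). Pecam1 (0.47, adjusted p = 0.335) and Cebpa (0.21, adjusted p = 0.516) were not called, and the other markers of these classes were not tested. The summed muscle markers were not higher, at between 3.30 and 3.77 CPM in Scr and between 2.37 and 3.36 CPM in Yme1l siRNA. The epithelial markers summed to between 0.0924 and 0.166 CPM in Scr and between 0.807 and 1.33 CPM in Yme1l siRNA, with Krt8 at 1 count in each Scr library and at 24, 31 and 23 counts in Yme1l siRNA. The endothelial markers summed to between 0.450 and 0.721 CPM and between 1.43 and 1.92 CPM, and the adipocyte markers to between 1.87 and 4.07 CPM and between 5.34 and 5.84 CPM. Adgre1 (blood), Myod1 and Myog (muscle) were at 0, and Ptprc (blood) had 3 counts, all in Yme1l siRNA replicate 1. Cd68 (blood) was at 46.8 ± 5.53 CPM in Scr and at 42.8 ± 16.3 CPM in Yme1l siRNA. Des (muscle) was at 3.56 ± 0.236 and 3.03 ± 0.569 CPM. The part of these changes in the results for the imprinted genes was not tested.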

How the data were processed

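RNA-Seq of 6 cultures of WT MEFs was analysed, 3 with Scr siRNA and 3 with Yme1l siRNA. The authors made poly(A)-selected stranded libraries, sequenced them from both ends, mapped the reads to GRCm38 (mm10) and compared the groups, and the submitters' processing notes name HISAT2 2.0.4, StringTie 1.3.3, Cufflinks and Cuffdiff 2.2.1. The deposited counts are raw counts per locus with no normalization, and the counting program and its use of strand are not given in the sources used here. The FPKM that the authors deposited pool the libraries of a group and carry no error. Their log2 fold changes, test statistics, p-values and q-values were not used. Of 51499 loci, 635 join several names, and 0 had no name. All 6 columns of counts matched a sample by name.

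The counts were tested with edgeR 4.0.16 in R 4.3.3 (TMM, filterByExpr with a minimum of 10 counts and 15 in total, quasi-likelihood test without covariates, Benjamini-Hochberg adjustment over all 14499 loci, threshold 0.05), after the step was tested on simulated data. CPM are per effective library size, the SE is the size of the log2 fold change divided by the square root of F, and the common biological coefficient of variation was 0.131. Intervals and limits at 0 counts (3 counts) cover counting error only. Gene positions, exons and strands came from GENCODE M21 on GRCm38, and miRNA and promoter sequences from RefSeq GRCm38.p6. Alternatives were DESeq2 1.42.0, limma-voom (limma 3.58.1), other scale factors, filters and thresholds, the replicate number as a block, the removal of mtDNA loci or joined loci, and leaving out libraries. Genes named were all 10 members, Yme1l1, the partners and flanking genes of the members, the 3 genes of each other list with the smallest adjusted p and those called at 2-fold or more, and called loci at 2-fold or more within 250 kb. Peg10, Airn, Igf2r, Cdkn1c, Igf1, Igf1r, Insr, Dnmt3a, Zfp57, Fignl1, the pseudogenes and the markers named were chosen after their values were seen. The members and lists were chosen with earlier results of these data known. Cultures are stated to be independent, and p-values measure the spread between them. Python 3.11.15 with pandas 2.3.3, scipy 1.17.1 and matplotlib 3.10.9 made the tables and figures.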

Additional observations from a re-analysis of the deposited data

How the results depend on the processing

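Alternatives were computed for the counts of calls, the medians of the 10 genes and each gene named except the markers, and not for the RPKM order. Of these, 5 values turned their sign, all of genes that were not called: Cdkn1c ran from -0.23 to 0.11, Igf1 from -0.44 to 0.090 and Igf2r from -0.023 to 0.21 over the fits that left out libraries, Cdkn1c turning without Scr replicate 1, Igf1 without Scr replicate 1 or Yme1l siRNA replicate 3, and Igf2r without Scr replicate 1 or 2. Mest and Mirg kept their direction and call wherever they were tested, with an adjusted p of at most 0.0205 and 0.0327. A filter at a mean count of 50 or more left Mirg and Grb10 untested, with 1 of the 10 genes called lower and 2 comparison imprinted genes called higher in place of 5. At an adjusted p under 0.01, 0 of the 10 genes were called higher, 3 comparison imprinted genes were higher, and 5 genes of imprint maintenance were higher and 2 lower. Without loci that join names, 1 of the 10 genes was higher and 1 lower, because H19 and Mirg are joined loci. Leaving out 1 library at a time, between 0 and 2 of the 10 genes were called higher and 2 lower throughout, and between 5 and 10 genes of imprint maintenance were higher. H19 lost its call in 4 of these fits and Plagl1 in 4, and both lost it at an adjusted p under 0.01. Igf1r and Peg10 also did not pass at an adjusted p under 0.01. In all, 579 values of single genes kept direction and call, and 178 values of counts and medians stayed within their limits, against 14 that moved. Other scale factors and tests moved the median of all loci to between 0.01 and 0.03, and the filter of at least 1 count moved it to 0.08.

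Same-numbered libraries deviated together with correlations of 0.04, 0.12 and 0.19, and 2 of 3 numbers correlated best with their own. The labels do not say that a replicate number marks a shared day. The numbers were therefore not taken to pair the cultures, and the block was run as an alternative. With the replicate number as a block, 4227 loci were higher and 4460 lower, no call of the 10 genes changed, and H19 stood at 1.25 (adjusted p = 0.00257), Plagl1 at 0.42 (0.0280), Mest at -2.09 (0.000349) and Mirg at -1.06 (0.0121). An alternative chosen after seeing the data left out replicate 3 of both groups, and gave 1.12 (adjusted p = 0.00750) for H19, 0.64 (7.4e-05) for Plagl1 and -2.35 (4.4e-05) for Mest. Levels under 1 CPM limit what can be said of Grb10, Igf2 and the genes at 0. The same limit holds, in some or all libraries, for H19, Mirg, Mest, Syt8, B230208H11Rik, Phlda2, Nespas, Dnmt3l and Igfbp5, among others.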
